A study of Mus musculus with 12 samples.

Results

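The genes described here encode the voltage-gated calcium and sodium channels, the proteins that turn a change of membrane voltage into calcium or sodium entry. They are 30 genes picked by symbol, 18 for calcium channels and 12 for sodium channels, out of 21523 protein-coding genes of the mm10 RefSeq gene table, and each was searched for c-Fos peaks inside it or within 100 kb of it. Nuclei came from CA1, a pyramidal cell field of the hippocampus, of C57BL/6 mice aged 3 to 4 weeks with the genotype CaMK2a-Cre/+; LSL-Sun1-GFP/+. All 4 groups carry this genotype, in which a Cre driven by CaMK2a, a gene of excitatory forebrain neurons, switches on a green fluorescent tag of the nuclear envelope used to sort the nuclei. The groups were c-Fos after kainic acid, rabbit IgG after kainic acid, c-Fos after PBS and rabbit IgG after PBS, with 3 replicates each and tissue taken 2 to 3 h after the injection. Kainic acid is a glutamate receptor agonist that makes hippocampal neurons fire in seizure-like bursts. CUT&RUN, in which an antibody guides a nuclease that cuts out the DNA around the bound protein, was run on 50000 nuclei per reaction. The labels do not say whether a replicate pooled several animals.

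The values are the positions of 3294 peaks on the 19 autosomes and the X chromosome, from 1 list that its name describes as replicated and as the kainic acid c-Fos reactions set against IgG. It is attached to 1 sample and was taken here as a list of the whole kainic acid c-Fos group. The list holds no signal and no value per library, so the depth is unknown, no spread between replicates can be given, and nothing below carries a p-value. Peaks after PBS were not analysed here, so no peak below can be called induced by kainic acid. A peak list gives no expression levels, so neither the identity of the sorted nuclei nor the expression of any channel was checked. The nuclei were profiled in bulk, and a peak does not say in how many nuclei c-Fos was bound.

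A voltage-gated calcium channel is built around a large pore-forming alpha subunit, which sets the current type (L, P/Q, N, R or T), and in most types it is joined by a beta subunit inside the cell and an α2δ subunit outside it, both of which raise the number of channels at the membrane. Sodium channels likewise pair a pore-forming alpha subunit with small beta subunits that bear an adhesion domain. In pyramidal neurons sodium channels start and carry the action potential, while calcium channels trigger transmitter release at terminals, shape dendritic firing, and link firing to gene transcription in the nucleus. c-Fos is a subunit of AP-1, a transcription factor that neurons assemble after strong firing and that binds mostly at enhancers.

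Of the 30 channel genes, 10 (33.3%) had a peak inside or within 100 kb, against 4694 of all 21523 protein-coding genes (21.8%). A peak midpoint lay inside the gene for 7 channel genes (23.3%), against 1187 of all protein-coding genes (5.52%). Channel genes are long, with a median of 114 kb against 17.4 kb for all protein-coding genes, and long genes hold more peaks. The shares of all protein-coding genes in the same length classes add up to 11.0 genes with a peak inside or nearby and 6.50 with a peak inside, next to the 10 and 7 observed. The raw shares are thus higher than those of all genes, while at matched length the counts lie within about 1 gene of the sums. The median distance from a channel gene to the nearest peak was 178 kb, against 360 kb over all protein-coding genes. Unlike the sums above, this comparison was not matched on length, and long genes more often hold a peak.

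Among the channel genes themselves, peaks inside the gene went with length. Of the 8 longer than 200 kb, 6 had a peak inside, and of the other 22 only Scn2a did. In the class over 400 kb, 4 of 5 channel genes had a peak inside, against 203 of 352 protein-coding genes (57.7%). Between 200 and 400 kb it was 2 of 3, against 217 of 638 (34.0%), and between 100 and 200 kb it was 1 of 11, against 269 of 1435 (18.7%). None of the 4 channel genes of 50 to 100 kb had a peak inside or nearby, where 662 of 2506 protein-coding genes (26.4%) had one. Of the 7 of 10 to 50 kb, only Scn3b had a peak nearby (20.6% of all genes of that class). The 10 channel genes with a peak had a median length of 343 kb, and the 20 without had 91.1 kb.

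**Figure D1:**
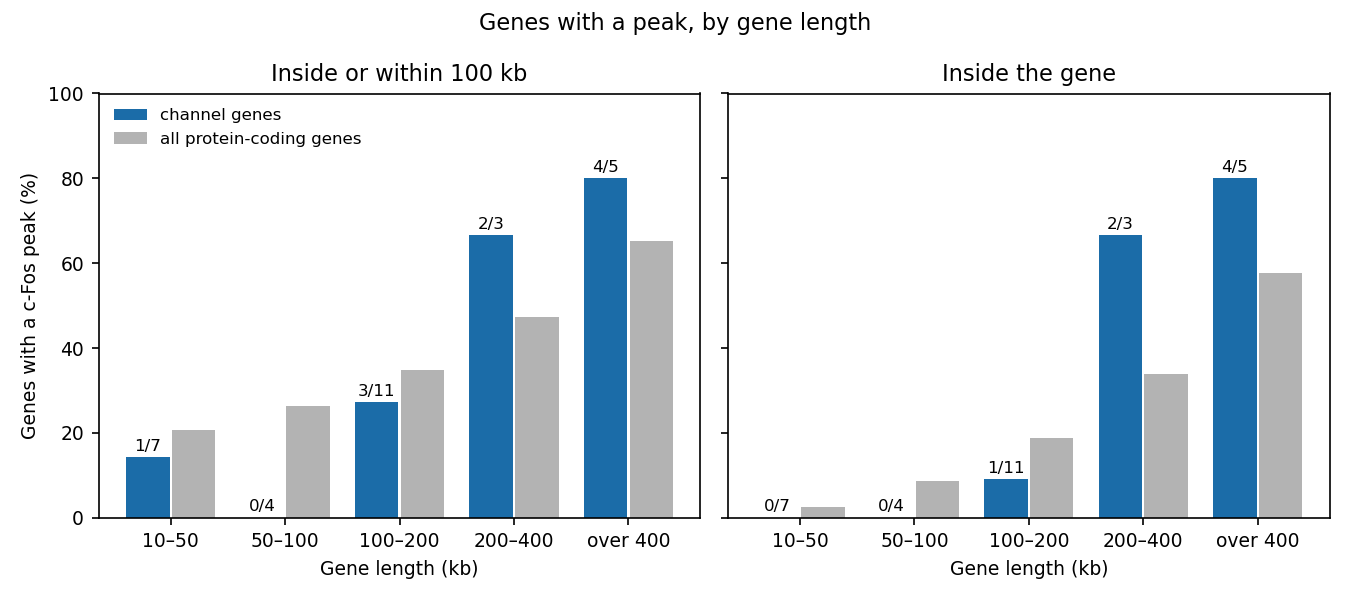
Share of genes with a c-Fos peak (%) by gene length (kb) for channel genes (blue, number with a peak over number in the class above each bar) and for all protein-coding genes (grey), with peaks inside or within 100 kb at left and inside the gene at right. The share of all genes rises with length, and channel genes over 400 kb reach 4 of 5 in both panels, while those of 50 to 100 kb are at 0 of 4.

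The 10 genes together had 18 peaks, none shared by 2 channel genes. Inside the genes lay 11 peaks and outside them 7. The 18 peaks were 846 to 3778 bp wide, with a median of 1329.5 bp against 1341.5 bp for all peaks. Each of the 11 peaks inside a channel gene lay at least 18.6 kb from either end of the gene. No other protein-coding gene lay within 100 kb of any of these 11 midpoints. Of the 7 outside peaks, 4 had their midpoint inside another protein-coding gene.

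**Figure D2:**
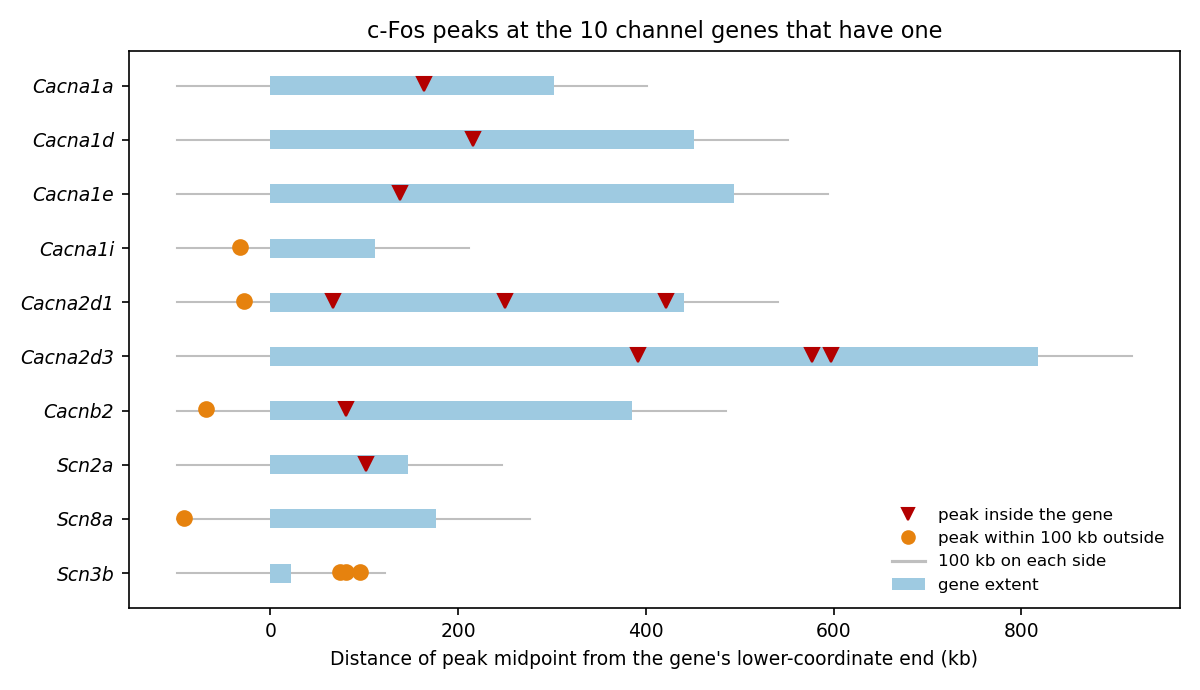
Positions of c-Fos peak midpoints (red triangles inside the gene, orange circles outside) at the 10 channel genes with a peak, in kb from the lower-coordinate end of each gene, drawn to scale. Blue bars are the gene extents and grey lines the 100 kb on each side. Cacna2d1 has 4 peaks and Cacna2d3 has 3, while Scn3b has its 3 outside the gene.

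Of the 4 auxiliary α2δ genes, Cacna2d1 and Cacna2d3 had peaks. The sums from the length classes were 2.01 genes with a peak inside or nearby and 1.53 with one inside. Cacna2d1 and Cacna2d3 held 6 of the 11 peaks inside channel genes. Only 1 of these 6, in Cacna2d3, was at least as wide as the median peak, and among peaks of that width they held 1 of the 3 inside channel genes, with none inside Cacna2d1. Cacna2d1, whose protein carries calcium channels to terminals and binds gabapentin, spans 440 kb of chromosome 5 (15934264 to 16374511, plus strand). It had 3 peaks inside and 1 outside. Going along the gene, they lay at 16000651 to 16001872, 16183728 to 16184784 and 16355284 to 16356448, which is 15.2, 56.8 and 95.8% of the way from its start to its end. The outside peak (15905436 to 15906898) lay 28.1 kb upstream, with no other protein-coding gene within 100 kb of it. Among the 200 protein-coding genes nearest to Cacna2d1 in length, 19 had 4 or more peaks inside or nearby.

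Cacna2d3, the longest of the 30 genes at 818 kb (chromosome 14, 28904943 to 29722775, minus strand), encodes a related subunit. It had 3 peaks inside and none outside. They lay at 29295825 to 29297172, 29481648 to 29482958 and 29501225 to 29502070, or 425, 240 and 220 kb from the listed transcription start. The last of them was the narrowest channel peak (846 bp) and lay 19.3 kb from its neighbour. Of the 200 genes nearest in length, 30 held 3 or more peaks inside. The other two genes of the subfamily had no peak: Cacna2d2 had its nearest at 389 kb and Cacna2d4 at 767 kb. Both are shorter than Cacna2d1, at 130 kb and 116 kb.

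Of the 10 pore-forming calcium channel genes, 4 had a peak inside or nearby, against a sum of 4.13 from their length classes. Cacna1a, Cacna1d and Cacna1e each had 1 peak, inside the gene, against a sum of 2.73 genes with a peak inside. Cacna1a encodes the P/Q-type channel that drives transmitter release at most central synapses. Its peak on chromosome 8 (84501330 to 84502727) lay near the middle of the gene, 163 kb from its lower end and 138 kb from its higher end. Cacna1d encodes an L-type channel that opens at fairly negative voltages, and its peak (chromosome 14, 30255405 to 30256445) lay 97.6 kb from the nearest of 2 listed starts. Cacna1e encodes the R-type channel, a main source of calcium in dendritic spines. Its peak was 2306 bp wide, wider than 91.6% of all peaks, and lay at 154527849 to 154530154 on chromosome 1. It lay 197 kb from the 1 listed start, which is inside the gene. The higher-coordinate end, where this minus-strand gene begins, lay 356 kb from the peak. Cacna1d and Cacna2d3 are neighbours on chromosome 14, 317 kb apart, with no peak between them.

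The fourth pore-forming gene with a link was Cacna1i, a T-type channel gene on chromosome 15 whose only peak lay 32.2 kb upstream. That peak (80253884 to 80256264, 2381 bp) had 5 other protein-coding genes within 100 kb, and its midpoint lay 110 bp from Atf4, which encodes a transcription factor of the integrated stress response. It covered all 300 bases of the listed Atf4 promoter window, which runs from 250 bases before to 50 after the transcription start. Atf4 is therefore nearer to this peak than Cacna1i is.

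Cacna1c, the main L-type channel of pyramidal neurons and a route from calcium entry to transcription, had no peak inside or within 100 kb, although it spans 610 kb of chromosome 6. The nearest lay 118 kb away. Of the 200 protein-coding genes nearest to it in length, 123 (61.5%) had a peak inside or nearby. Cacna1b, the N-type release channel, had its nearest peak 1342 kb away. The T-type genes Cacna1g and Cacna1h had theirs at 345 and 506 kb. Cacna1s and Cacna1f, the L-type genes of skeletal muscle and of the retina, had theirs at 106 kb and 2065 kb. Cacna1f lies on the X chromosome, where the whole list has 21 peaks, or 0.125 per Mb against 1.28 per Mb over the 20 chromosomes together.

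The 4 calcium channel beta subunit genes encode the intracellular subunits. Their length classes gave sums of 1.36 genes with a peak inside or nearby and 0.733 with one inside. Of the 4, only Cacnb2 had peaks. It had 1 inside (chromosome 2, 14683764 to 14684973), 80.1 kb from the nearest listed start, and 1 lying 69.0 kb upstream (14534077 to 14535706), 39.9 kb from Slc39a12. Cacnb4, at 248 kb long enough to fall in a class where 47.3% of genes had a peak, had its nearest 1035 kb away. Cacnb3 had its nearest at 102 kb and Cacnb1 at 918 kb.

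**Figure D3:**
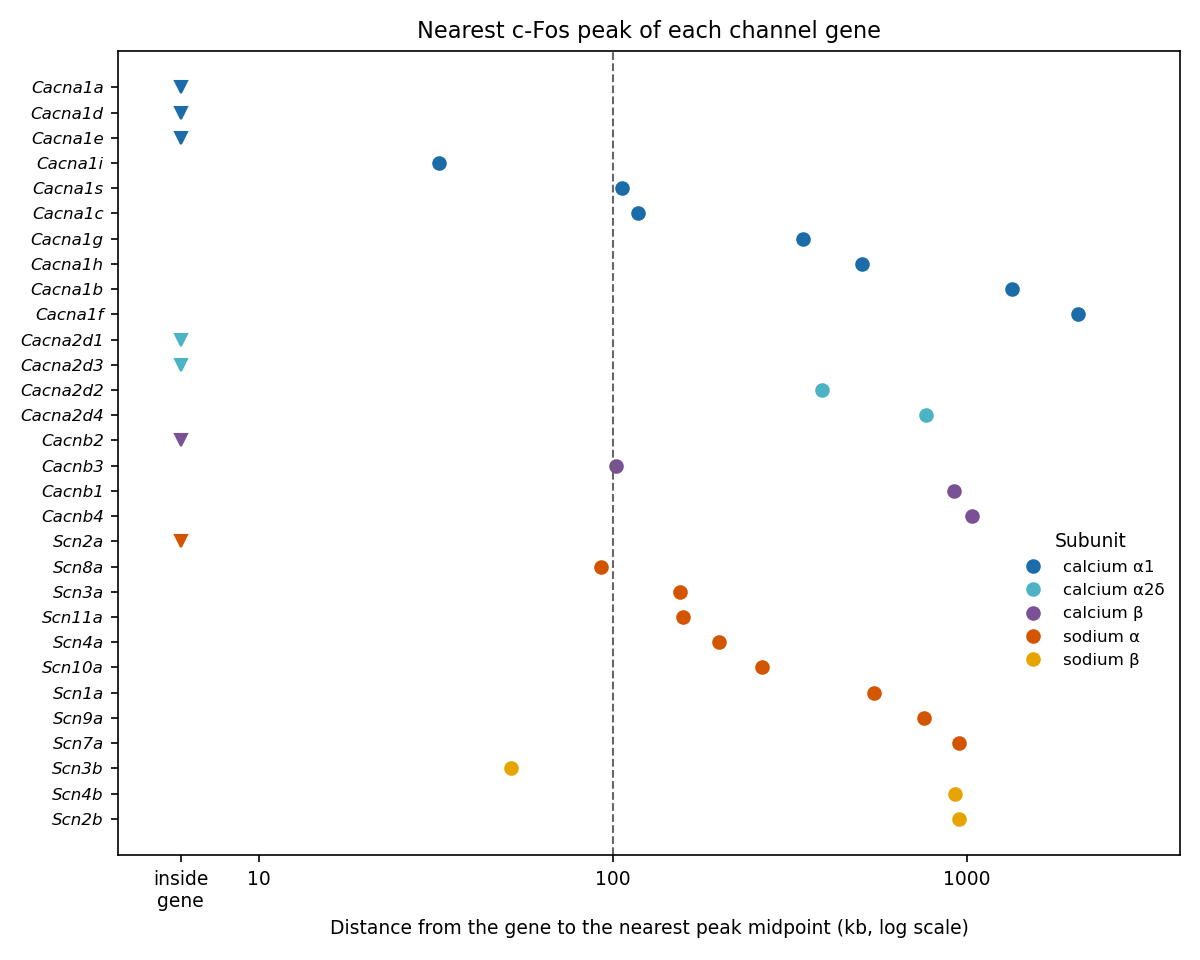
Distance from each of the 30 channel genes to the nearest c-Fos peak midpoint (kb, log scale), by subunit, with triangles at the left for genes that have a peak inside. The dashed line marks 100 kb, and 7 genes have a peak inside, 3 one between 32.2 and 92.5 kb, and 20 none nearer than 102 kb.

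Of the 12 sodium channel genes, 3 had a peak inside or nearby, against a sum of 3.53 from their length classes, and 1 had a peak inside, against 1.50. The 18 calcium channel genes had 7 and 6, against 7.49 and 4.99. Scn2a was the sodium channel gene with a peak inside. Its protein is, with that of Scn8a, the main sodium channel of the axon initial segment of pyramidal neurons. The peak lay on chromosome 2 from 65721578 to 65722736 (1159 bp), 53.5 kb downstream of the nearer of 2 listed starts and 45.3 kb from the far end of the gene. Scn8a itself had 1 peak, 92.5 kb upstream (chromosome 15, 100776098 to 100778680), with its midpoint inside Slc4a8, a bicarbonate transporter gene.

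Scn3b, a beta subunit gene of 22.4 kb on chromosome 9, had 3 peaks, all on its higher-coordinate side at 51.4, 57.7 and 72.9 kb. All of these midpoints lay inside Gramd1b, a gene of cholesterol transport. The first of them (40341138 to 40344915) was the widest channel peak at 3778 bp, and the second lay 6.25 kb from it. Scn2b and Scn4b, the other two beta genes, lie 8.55 kb from each other elsewhere on chromosome 9, and their nearest peaks were 953 and 929 kb away.

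The sodium channel cluster of chromosome 2 held 1 peak. In 1328 kb it holds Scn3a, Scn2a, Scn1a, Scn9a and Scn7a, and the peak inside Scn2a was the only one, or 0.753 per Mb against 1.54 per Mb on the whole of chromosome 2. At the density of chromosome 2, a span of this length would hold 2.04 peaks. Going outward from the cluster, the next peaks lay 2894 kb below it and 1221 kb above it. The Scn2a peak thus sat alone in a stretch of 5443 kb with 17 protein-coding genes lying wholly within it. The gaps on either side of it were 3159 and 2284 kb, against a median of 321 kb over 3254 gaps between neighbouring autosomal peaks. Of these 3254 gaps, 124 (3.81%) were at least as long as the first and 246 (7.56%) as the second. Because long gaps cover more sequence, they made up 23.7 and 37.4% of the autosomal length between peaks. Scn3a, expressed most in the embryo, had its nearest peak, that inside Scn2a, at 155 kb. Scn1a, known as the main sodium channel of fast-spiking interneurons, had that peak as its nearest at 549 kb, Scn9a at 758 kb and Scn7a, an atypical sodium-sensing member, at 951 kb.

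**Figure D4:**
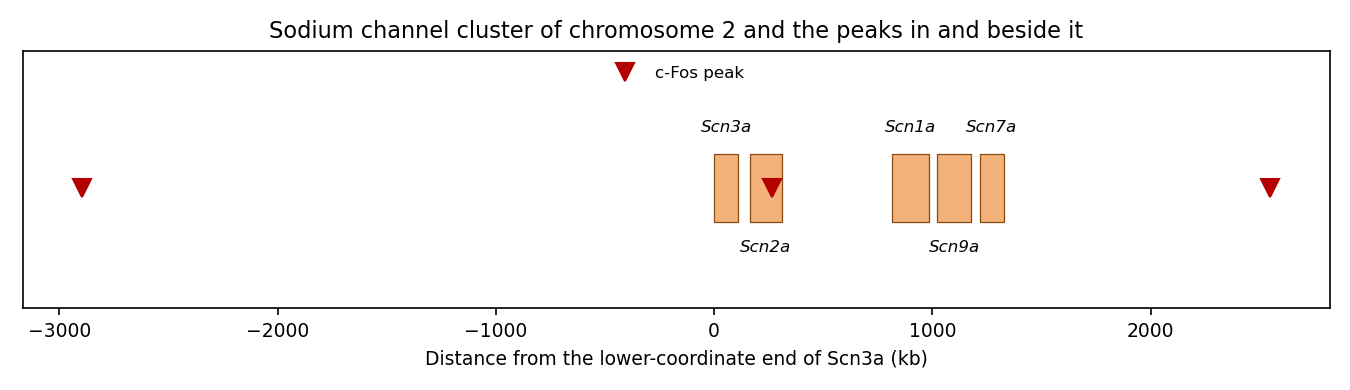
Extents of the 5 sodium channel genes of chromosome 2 (orange bars) and c-Fos peak midpoints (red triangles), in kb from the lower-coordinate end of Scn3a. The peak inside Scn2a is the only one in the cluster, and the next ones lie 2894 kb below and 1221 kb above it.

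Sodium channel genes known for other tissues had no peak either. Scn10a and Scn11a, genes of pain-sensing neurons that lie 34.4 kb apart on chromosome 9, had their nearest peaks at 264 and 158 kb. Scn4a, of skeletal muscle, had its nearest at 199 kb. Near the 100 kb limit, Scn8a (92.5 kb) fell just inside, and Cacnb3 (102 kb), Cacna1s (106 kb) and Cacna1c (118 kb) just outside. Of the 20 genes without a peak, 11 had their nearest more than 500 kb away. Within 500 kb, 19 of the 30 channel genes had a peak, against a length-class sum of 21.3 and 60.0% of all protein-coding genes.

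No peak overlapped a listed promoter of a channel gene. The RefSeq promoter table for GRCm38.p6, the assembly of mm10, held 34 windows of 300 bases for 24 of the 30 genes. Of these windows, 0 met a peak, against 338 of 32619 windows of all genes (1.04%). At so low a share, a set of 34 windows will often meet no peak. Cacna1a and Scn3b, both with a peak inside or nearby, had no listed window. Both strands were searched for TGANTCA, the palindromic AP-1 site with any base at its centre, and for TGACGTCA, the related CRE site, whose letters do not contain the first. Of the 34 windows, 0 held either, against 2559 (7.85%) of all windows with TGANTCA and 588 (1.80%) with TGACGTCA. The channel windows had a median of 59.5% G and C, against 53.0% in all windows. An absent match says only that these letters are not in these windows.

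Of the promoter windows printed here, that of Atf4 is shown because the Cacna1i peak covers it whole, and those of Cacna1i, Cacna2d1 and Scn2a because their peaks lie away from it. They are given 5′ to 3′ on the gene's strand, all plus, with nothing in capitals since neither site was found. They lie at chr15:80254934-80255233 for Atf4, chr15:80286988-80287287 for Cacna1i, chr5:15934441-15934740 for Cacna2d1 and chr2:65668436-65668735 for Scn2a, the nearer of its 2 listed starts to the peak.
Atf4: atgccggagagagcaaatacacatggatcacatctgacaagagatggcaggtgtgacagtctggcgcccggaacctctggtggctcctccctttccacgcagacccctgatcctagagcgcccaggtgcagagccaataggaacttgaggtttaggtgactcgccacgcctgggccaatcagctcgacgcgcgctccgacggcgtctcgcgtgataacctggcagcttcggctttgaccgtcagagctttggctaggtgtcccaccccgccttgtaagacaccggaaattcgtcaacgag
Cacna1i: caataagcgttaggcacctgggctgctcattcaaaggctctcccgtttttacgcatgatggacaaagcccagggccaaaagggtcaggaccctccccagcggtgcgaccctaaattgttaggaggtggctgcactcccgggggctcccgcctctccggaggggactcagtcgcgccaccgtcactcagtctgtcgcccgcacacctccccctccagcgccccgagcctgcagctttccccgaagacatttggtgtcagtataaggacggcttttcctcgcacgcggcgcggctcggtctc
Cacna2d1: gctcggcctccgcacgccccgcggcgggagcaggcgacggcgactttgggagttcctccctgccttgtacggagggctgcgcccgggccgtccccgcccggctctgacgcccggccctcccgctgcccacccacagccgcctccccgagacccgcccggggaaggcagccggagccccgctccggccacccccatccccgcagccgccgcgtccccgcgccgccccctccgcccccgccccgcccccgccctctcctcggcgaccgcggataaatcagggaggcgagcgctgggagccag
Scn2a: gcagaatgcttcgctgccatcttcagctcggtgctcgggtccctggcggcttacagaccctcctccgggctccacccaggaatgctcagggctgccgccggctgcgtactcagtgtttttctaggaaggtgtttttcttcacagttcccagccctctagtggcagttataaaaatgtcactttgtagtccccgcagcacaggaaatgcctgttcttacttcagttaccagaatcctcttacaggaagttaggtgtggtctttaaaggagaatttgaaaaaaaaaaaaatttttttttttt

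The windows differ in composition. That of Cacna2d1 is 80.0% G and C, while those of Cacna1i, Atf4 and Scn2a are 62.7, 59.0 and 47.7%. The nearest peak edge lay 27.5 kb from the Cacna2d1 window, 30.7 kb from that of Cacna1i and 52.8 kb from that of Scn2a. The sequence under the peaks inside channel genes was not analysed here, so whether those peaks hold an AP-1 site was not tested.

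Genes of proteins that bind or anchor these channels, or belong to related complexes (the gamma subunit family, most of which serve AMPA receptors, and the sodium leak channel with its subunits), were counted the same way. Of these 34 genes, 12 (35.3%) had a peak inside or within 100 kb, against a sum of 11.5 from their length classes, and 5 had one inside, against 6.61. Ank2, which encodes an ankyrin that anchors membrane proteins, had 3 peaks inside and 5 in all. Nedd4l, a ubiquitin ligase that removes sodium channels from the membrane, had 2 inside and 3 in all. Fgf14, an intracellular factor that binds sodium channels at the axon initial segment, had 1 inside and 2 in all. Rimbp2, which ties calcium channels to release sites, had 2, both inside. Sptbn4, a spectrin of the axon initial segment, had 1 inside and 2 in all.

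Other ion channel families were set beside the channel genes without a test. Of 94 genes with symbols beginning with Kcn, potassium channels with their auxiliary and interacting proteins, 32 (34.0%) had a peak inside or nearby, against a sum of 26.1 from their length classes, and 12 had one inside, against 11.3. Neighbouring Kcn genes can share a peak, as Kcna2 and Kcna3 do, so the 32 genes do not stand for 32 separate peaks. Kcnd2, an A-type channel of dendrites, had 5 peaks inside, the most of that family. Of 27 genes with symbols of the glutamate receptor families, 16 (59.3%) had a peak inside or nearby, against 11.8, and 14 had one inside, against 8.28. Among the 16 is Grid2ip, which encodes a scaffold protein and not a receptor. Gria1, Grin2a and Grin2b, which encode AMPA and NMDA receptor subunits, had 6 each inside or nearby, more than any calcium or sodium channel gene. Counted per length of gene, peaks inside came to 1.94 per Mb in the channel genes, against 1.67 in all protein-coding genes. The value was 2.21 in the calcium channel genes, from 10 peaks. It was 3.99 in α2δ (6 peaks, all in Cacna2d1 and Cacna2d3), 1.28 in pore-forming (3 peaks) and 1.49 in beta subunit genes (1 peak). In the sodium channel genes it was 0.869, from 1 peak. Potassium channel genes had 1.78 and glutamate receptor genes 3.08.

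**Figure D5:**
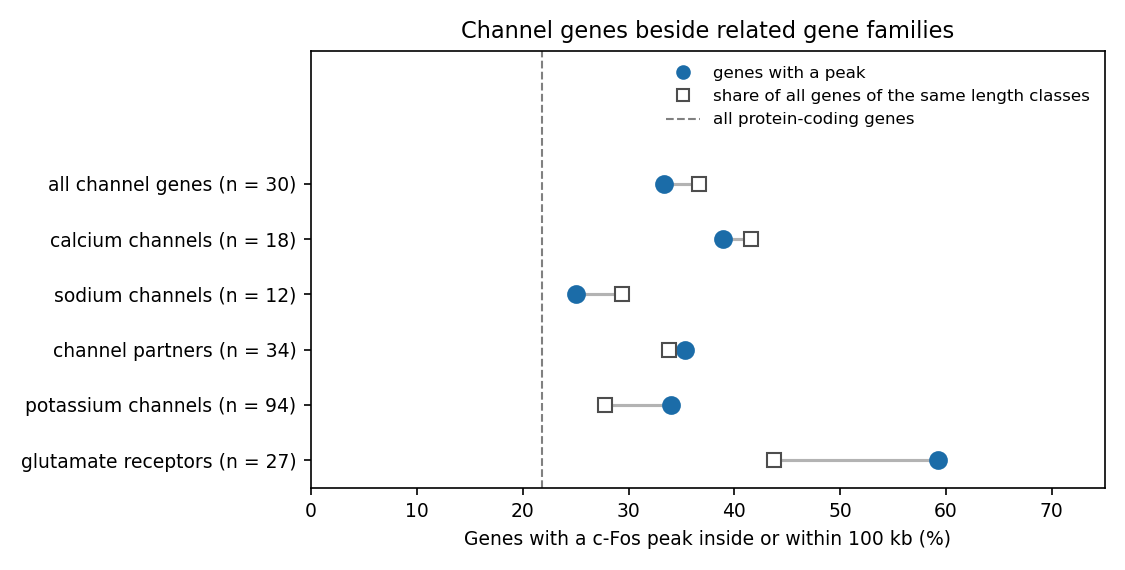
Share of genes with a c-Fos peak inside or within 100 kb (%, filled circles) for channel genes and related lists (potassium channel and glutamate receptor genes by symbol), beside the share of all protein-coding genes in the same length classes (open squares). The dashed line is the 21.8% of all protein-coding genes. All 30 channel genes, and the calcium and sodium channel genes that make them up, lie slightly left of their squares. The other lists lie to the right of theirs.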

How the data were processed

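The authors deposited 1 table of peak positions, whose 3 columns give the chromosome, start and end of each peak, with no header, signal, score or p-value. The submitters' processing notes name SEACR 1.1, bedtools 2.27.1, Bowtie2 2.2.9 and Trimmomatic 0.36, and the builds mm10 and sacCer3. The order and settings of these tools, and the way replicates were combined, are not given there. Of 3295 peaks, 1 on an unplaced sequence was left out.

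Positions are 1-based on mm10. Genes came from the RefSeq table of GRCm38.p6. Those starting below 3000000 were left out, because such starts appeared to belong to unplaced scaffolds. A peak counted for a gene when its midpoint lay inside it or within 100 kb. Length classes were split at 10, 50, 100, 200 and 400 kb, and the share of all protein-coding genes in each was summed over a list. Starts and strands came from the RefSeq promoter table, and strand was not in it for 6 of the 30 genes. Genes were linked with Python 3.11.15, numpy 2.4.6 and pandas 2.3.3, and the link was tested on simulated peaks. The members and lists were chosen with earlier results of these data known, and no test was made. Of partners and like families, up to 6 genes with most peaks were to be named; not all are reported here. Sequences under peaks were not used, since only promoter windows were at hand.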

Additional observations from a re-analysis of the deposited data

How the results depend on the processing

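The number of channel genes with a peak stayed at 10 with peaks within 500 bp merged, peaks over 5 kb left out or any base of the peak counted, and was 7 at 25 kb, 8 at 50 kb and 8 with only the wider 1647 peaks, next to length-class sums of 7.76, 8.80 and 6.53, so that with the wider peaks, as at 200 kb, the count lay above its sum. It was 16 at 200 kb and 19 at 500 kb, by construction of the larger windows, next to length-class sums of 14.6 and 21.3. The sum of 11.0 was 10.7 with the 200 genes nearest in length and 11.0 with all gene types. With the wider peaks, 3 channel genes had a peak inside, next to a sum of 3.75. The wider peaks of Cacna1i, Cacnb2, Scn3b and Scn8a all lay outside the gene, with another protein-coding gene nearer. The 18 peaks were 11, 28 and 38 at 25, 200 and 500 kb and 9 among the wider peaks. The 12 partner genes were 6, 7 and 21 at 25, 50 and 500 kb and 5 with the wider peaks (sums 7.92, 9.08, 23.0 and 6.83). Chosen after seeing the data, counting a peak only where no other protein-coding gene lay nearer left 7 channel genes (sum 7.78) with 12 peaks, without Cacna1i, Scn8a and Scn3b, and 7 partner genes (sum 7.79). Among the wider peaks, Cacna1d and Scn2a kept none, Cacna2d1 kept its outside peak and Cacna2d3 1 inside. Positions are not given per replicate, so leaving out a replicate and pairing replicates were both impossible. Depth is unknown, and peaks under the authors' threshold are missing from every count.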

Other observations

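Genes that move calcium inside the cell or out of it were looked at after the peaks had been seen. Of 19 such genes, 7 (36.8%) had a peak inside or within 100 kb, against a sum of 7.34 from their length classes. A peak lay inside 6 of them, against a sum of 4.55. Slc24a2, a potassium-dependent sodium-calcium exchanger of neurons, had 5 peaks, all inside the gene. Ryr3 and Itpr1, which encode calcium release channels of the endoplasmic reticulum, had 2 inside each, as did Slc24a3. Atp2b1, a calcium pump of the plasma membrane, had 1 inside and 2 in all. Slc8a1 and Slc8a2, sodium-calcium exchangers, had 1 peak inside and 2 peaks outside, the nearest of these at 29.1 kb from Slc8a2.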
